A study of Mus musculus with 8 samples.

Results

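The 41 genes described here encode the machinery of DNA replication and S phase, and 40 of them were measured in clonally expanded and in polyclonal CD8 memory T cells of the same old mice. The genes are a list drawn up by function, with earlier results of these data known, and each was read from the probe set with the highest mean log2(signal + 5) over the 8 arrays, out of the 45101 probe sets of the array, which name 18194 genes singly. Chaf1a was not analysed here. An age-associated clonal expansion is the progeny of 1 CD8 T cell that has come to fill a large share of the memory compartment of an old animal. Each of 4 female mice gave 1 expansion and 1 polyclonal sample, so n = 4 pairs and the replicates are separate animals. Age at harvest was 20 months for mice 1 and 2, and 23 months for mice 3 and 4. Mouse 4 was of strain B10.BR and the others of strain C57BL/10SnJ. All samples came from spleen and lymph nodes and were sorted as CD8+ CD122+ MHC II- cells. The expansions carried TCR Vb3 in mouse 1, Vb8.1/8.2 in mouse 2, Vb8.3 in mouse 3 and Vb14 in mouse 4, and each polyclonal partner was sorted as negative for that chain. Each expansion was thus defined by its V beta chain in 1 animal. Per each sample's own label, expansion 1 is of a subclass with high integrin alpha4 (alpha4-high), and the other 3 are alpha4-low, although the labels number the samples unevenly.

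Replication begins when the origin recognition complex, with Cdc6 and Cdt1, loads the Mcm2 to Mcm7 ring onto origins in G1. Kinases and the GINS complex then turn the ring into an active helicase, and primase, the replicative polymerases and the sliding clamp Pcna copy both strands. E2F transcription factors switch many of these genes on together as a cell leaves quiescence, so their RNA is used as a sign of cycling. Memory CD8 T cells divide slowly under interleukin-15, which signals through CD122, and most of them are resting at any time.

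The promoters of the members that the results turn on are shown first, since replication genes are classic E2F targets. The sequences are the 250 bases upstream of the annotated start in RefSeq (mouse build GRCm38.p6), 5′ to 3′ on the strand of the gene. Capitals mark matches to the E2F words TTTCGCGC, TTTGGCGC, TTTCCCGC and TTTGCCGC, or to the CCAAT box, each on either strand, so that GCGGGAAA and ATTGG also count.
Rad51ap1: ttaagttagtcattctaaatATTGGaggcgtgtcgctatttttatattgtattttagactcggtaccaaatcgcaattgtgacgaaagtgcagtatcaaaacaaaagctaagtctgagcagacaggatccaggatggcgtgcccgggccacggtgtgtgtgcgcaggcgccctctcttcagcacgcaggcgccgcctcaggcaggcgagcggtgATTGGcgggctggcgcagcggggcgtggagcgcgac
Chek1: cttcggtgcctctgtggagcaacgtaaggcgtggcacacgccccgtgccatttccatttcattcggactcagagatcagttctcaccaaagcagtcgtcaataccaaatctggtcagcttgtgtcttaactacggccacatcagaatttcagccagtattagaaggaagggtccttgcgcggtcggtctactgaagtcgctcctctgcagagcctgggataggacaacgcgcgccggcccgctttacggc
Dtl: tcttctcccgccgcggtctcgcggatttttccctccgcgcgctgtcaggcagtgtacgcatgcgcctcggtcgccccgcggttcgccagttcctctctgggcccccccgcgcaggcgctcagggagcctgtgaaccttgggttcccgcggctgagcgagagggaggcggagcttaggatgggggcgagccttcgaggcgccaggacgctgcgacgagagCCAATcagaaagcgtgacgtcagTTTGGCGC
Cdc6: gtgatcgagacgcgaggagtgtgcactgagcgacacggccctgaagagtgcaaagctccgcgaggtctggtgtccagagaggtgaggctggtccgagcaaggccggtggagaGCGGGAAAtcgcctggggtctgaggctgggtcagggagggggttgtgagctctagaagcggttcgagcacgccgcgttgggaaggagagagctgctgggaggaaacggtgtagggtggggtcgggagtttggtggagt
Mcm6: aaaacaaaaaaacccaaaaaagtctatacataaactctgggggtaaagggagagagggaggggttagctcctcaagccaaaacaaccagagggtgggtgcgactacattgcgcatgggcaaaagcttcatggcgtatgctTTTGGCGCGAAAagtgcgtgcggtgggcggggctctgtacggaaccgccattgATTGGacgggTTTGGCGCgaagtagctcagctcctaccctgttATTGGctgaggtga
The Rad51ap1 window (chr6:126939588-126939837, minus strand) held 2 CCAAT boxes and none of the E2F words. The Chek1 window (chr9:36726659-36726908, minus strand) held neither motif. The Dtl window (chr1:191575545-191575794, minus strand) held 1 E2F word in the last 8 bases before the start and 1 CCAAT box. The Cdc6 window (chr11:98907901-98908150, plus strand) held 1 E2F word, 138 to 131 bases upstream. The Mcm6 window (chr1:128359706-128359955, minus strand) held 3 E2F words, of which the match at 110 to 103 bases and the match at 106 to 99 bases overlap, and 2 CCAAT boxes. An entry was present for 34 members, and a gene with several starts was counted when any start held the motif. The E2F words were found in 8 of the 34 (23.5%), namely Cdc6, Dtl, Mcm5, Mcm6, Mcm7, Orc1, Pola1 and Rfc3, against 583 of 27025 genes with an entry (2.16%). A CCAAT box was found in 20 of the 34 (58.8%), against 37.5% of all genes, and the word TTTGAA, the cell cycle homology region of many mitosis genes, in 2 of the 34 (5.88%), against 18.3%. A match is a description of the letters and was not tested as a site.

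Most members were on average higher in the expansions than in their polyclonal partners, with the highest median in mouse 3 and a median near 0 in mouse 4, but no member passed the test. The mean paired difference was above 0 for 32 of 40 members (80%), against 46.1% of all 22518 probe sets tested, and its median was 0.43 log2 units over the members and -0.037 over all probe sets. The 2 shares are chosen differently. The members are the brightest probe set of each gene, 2 of them below the filter on low signal. The background holds every probe set that passed it. Of 32 other probe sets of the members that passed, 16 were higher on average, with a median of -0.017. All differences are expansion minus polyclonal on the scale of log2(signal + 5), which understates the change of dim genes. The median over the 40 members was 0.33 in pair 1, 0.48 in pair 2, 0.85 in pair 3 and -0.0026 in pair 4, and the SD of these 4 medians was 0.35. The medians over all probe sets in the same pairs were 0.061, -0.22, 0.0074 and 0.0047, so pair 2 had an offset of its own. With all probe sets of a gene averaged, the member medians were 0.26, 0.215, 0.37 and 0.058, so that pair 2 lay below pair 1. Members were higher in the expansion for 33 genes in pair 1, 26 in pair 2, 32 in pair 3 and 20 in pair 4. Of all 22518 probe sets tested, 12107, 9043, 11336 and 11320 were higher in the expansion in pairs 1 to 4. Mice 1 to 3 thus showed most members higher, and in mouse 4 they were split evenly.

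**Figure D1:**
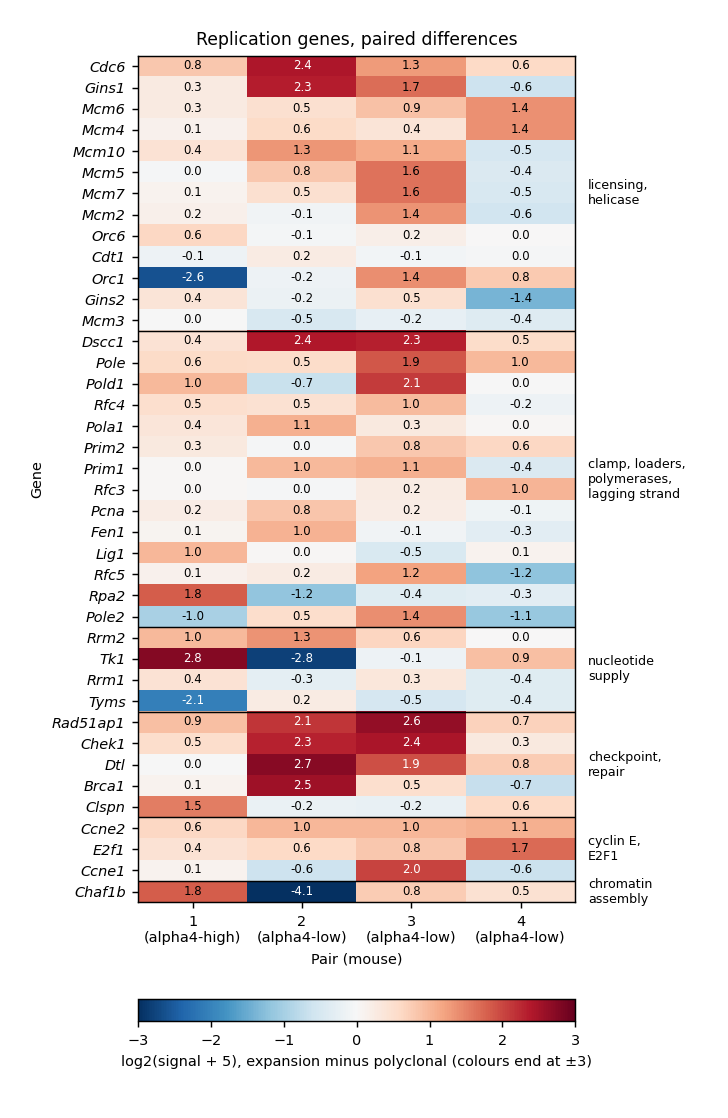
Paired differences of 40 replication genes (rows, grouped by role) in the 4 mice (columns), as log2(signal + 5) of the expansion minus that of the polyclonal sample, with the value printed in each cell. Red marks genes higher in the expansion, with most of the darkest red in pairs 2 and 3, and Mcm3 is the 1 gene below 0 in every pair.

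The spread among members differed between the pairs. In pair 1 the quartiles of the member differences were 0.10 and 0.61, in pair 2 -0.11 and 1.05, in pair 3 0.24 and 1.45, and in pair 4 -0.43 and 0.64. Differences above 1 log2 unit were seen for 4 members in pair 1, where 12% of all probe sets were that much higher, and for 11 in pair 2, against 7.83%. They were seen for 17 members in pair 3, against 11.7%, and for 5 in pair 4, against 9.65%. The counts of pairs 1 and 4 were close to the background share, and those of pairs 2 and 3 were above it.

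**Figure D2:**
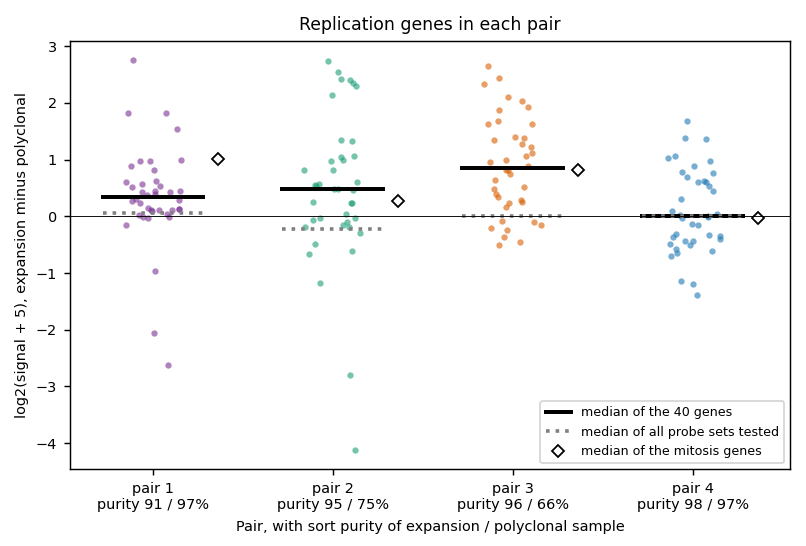
Difference of each of the 40 replication genes (points) in each pair, with their median (black bar), the median of all probe sets tested (dotted bar) and the median of the mitosis genes (diamond); the axis labels give sort purity of the expansion and of the polyclonal sample. The bar of the replication genes is at 0.85 in pair 3 and at -0.0026 in pair 4.

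A set of 11 members was higher in the expansion in each of the 4 pairs, against 4.79% of all probe sets: Mcm4, Mcm6, Cdc6, Pola1, Pole, Rrm2, Dscc1, Chek1, Rad51ap1, Ccne2 and E2f1. Another 14 members were higher in 3 pairs, 11 in 2 pairs and 3 in 1 pair, and Mcm3 was lower in every pair, against 6.05%. For Cdc6, Pole, Chek1 and E2f1 every expansion was above every polyclonal sample, against 0.711% of all probe sets, and for Mcm3 every expansion was below every polyclonal sample, against 0.635%. In the fit over all pairs (limma with the mouse as a block), 38 members passed the filter on low signal and 0 of them had an adjusted p under 0.05, as for 0% of all probe sets. The adjusted p was 0.9998 for each of them. At an unadjusted p under 0.05, 10 of the 38 were higher and 0 lower, against 0.95% of all probe sets that were higher and 2.3% that were lower at that level. These 10 were Rad51ap1, Dscc1, Chek1, Dtl, Cdc6, Ccne2, Mcm6, Pole, E2f1 and Rrm2. With 4 pairs an exact sign-flip permutation test of 1 gene cannot go below a p of 1 in 8, so it cannot reach the threshold.

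Sort purity differed between the mice, and its part in these values cannot be told apart from that of the mouse or the clone. The polyclonal samples of mice 2 and 3 were 75% and 66% pure and those of mice 1 and 4 were 97% pure, while the expansions were between 91% and 98% pure. Averaged over pairs 1 and 4 alone, 24 of 40 members were higher, with a median of 0.26. Averaged over pairs 2 and 3 alone the median was 0.69. Members higher in both pairs 1 and 4 numbered 18 of 40, against 28.1% of all probe sets, and members higher in both pairs 2 and 3 numbered 22 of 40, against 18.8%. The scanner record of expansion 4 also differs from that of the other 7 arrays, which cannot be told apart from the sample itself. In bulk samples, fewer cells of a type and less RNA per cell cannot be told apart.

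Markers of the labelled cell type were detected, with 8 of 8 CD8 T cell markers above background on every array. Some markers of other cell types, such as Ms4a1, Csf1r and S100a8, were also above background on all 8 arrays. Detection alone therefore does not measure the purity of the sorts. Background was taken on each array as the 95th percentile of 27 bacterial control probe sets, between 33.7 and 61.9. Cd4 was not above background in any expansion. It was above background in polyclonal sample 3 (101 against 34.7) and level with it in polyclonal sample 2 (43.9 against 43.6). The summed signal of 6 macrophage and monocyte markers was 1459 to 2896 in the expansions and 670 to 1802 in the polyclonal samples, that of 5 neutrophil markers 1077 to 9993 and 1598 to 7842, and that of 7 B cell markers 756 to 1489 and 635 to 1330. The median difference of the 6 macrophage and monocyte markers was above 0 in every pair, at 0.39, 1.07, 0.64 and 0.36 in pairs 1 to 4, highest in the pairs of mice 2 and 3. Their summed signal was higher in the expansion in mice 1 to 3 and lower in mouse 4 (1487 against 1802). Other lists had other orders of the mice. In pairs 1 to 4 the neutrophil medians were 0.82, 1.96, -0.41 and 0.36, and the B cell medians 0.0006, -0.21, -0.59 and 0.35. Dendritic cell markers had medians of 0.25, 0.47, -0.52 and 0.69, and NK cell markers 0.28, -1.99, -0.88 and -1.57. In these lists, 4 to 5 macrophage, 3 to 5 neutrophil and 4 to 6 B cell markers were above background in the expansions, and 4 to 6, 5 and 5 to 6 in the polyclonal samples. The sums of 3 CD4 T cell, 5 dendritic cell and 4 erythroid markers were 143 to 181, 259.8 to 1050.2 and 86.8 to 1418 in the expansions, and 92.1 to 351, 206 to 779.9 and 144 to 1154 in the polyclonal samples. The sum of 5 plasma cell markers was 2868 to 9263 in the expansions and 2725 to 5454.5 in the polyclonal samples, and Tnfrsf17 among them was above background on 0 arrays. The sum of 5 NK cell markers was 8845 to 27055 in the expansions and 17542 to 47075 in the polyclonal samples, with Ncr1 above background on 0 arrays. Eomes alone read 8505 to 21207 in the expansions and 11801 to 17451 in the polyclonal samples, and Klra8 49.1 to 1103 and 441 to 21818. Such sums are set by a few genes and are no measure of the number of NK or plasma cells. Whether these signals came from other cells in the sorts was not tested, nor was their part in the member values.

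Of 13 licensing and helicase genes, 9 were higher on average, with a median of 0.43 over all pairs, and pair medians of 0.15, 0.47, 1.12 and -0.39. Cdc6, which loads the Mcm ring, stood at the top. Its probe set (1417019_a_at) read 455, 629, 369.6 and 450.2 in expansions 1 to 4 and 256, 113, 149.7 and 295 in polyclonal samples 1 to 4. The groups did not overlap, and the widest gap was in mouse 2. The mean difference was 1.28 ± 0.81 (SD, n = 4 pairs; limma adjusted p = 0.9998), or 2.43-fold. Gins1, a subunit of the GINS complex that joins the ring in the active helicase, read 933, 1729, 1221 and 879 in the expansions and 767, 336, 377 and 1348 in the polyclonal samples. On this probe set mice 2 and 3 stood apart, with differences of 2.35 and 1.68, while mouse 4 had the opposite order at -0.61. The mean was 0.92 ± 1.34 (SD, n = 4; limma adjusted p = 0.9998), and without the pairs of mice 2 and 3 it was -0.17. The other tested probe set of Gins1, which was dimmer, had differences of 0.86, 1.59, 1.10 and 1.04 in pairs 1 to 4. The direction in mouse 4 thus depended on the probe set.

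The ring subunits themselves did not share 1 pattern. Mcm6 (1438852_x_at) read 8119.5, 6979.9, 15518 and 12750 in the expansions and 6709, 5023, 8405 and 4955 in the polyclonal samples. Mouse 4 had the widest gap for this gene. The paired differences were 0.28, 0.47, 0.88 and 1.36, with a mean of 0.75 ± 0.48 (SD, n = 4; limma adjusted p = 0.9998). Mcm4 had the same order of mice in its extremes, with differences of 0.13, 0.58, 0.39 and 1.37 and a mean of 0.62 ± 0.53. Mcm5, Mcm7 and Mcm2 instead had their highest difference in mouse 3 (1.62, 1.62 and 1.351) and were lower in the expansion of mouse 4 (-0.43, -0.49 and -0.58). Mcm3 read 349, 343, 349 and 303 in the expansions and 353, 483, 412 and 399 in the polyclonal samples. Every expansion was below every polyclonal sample, although by little in mouse 1, and the mean was -0.28 ± 0.21 (SD, n = 4; limma adjusted p = 0.9998). Subunits of the same hexamer thus differed in direction on their brightest probe sets in mouse 4, from 1.37 for Mcm4 to -0.58 for Mcm2. In that mouse the other tested probe sets of Mcm4 and Mcm6 were at -0.15 and -0.52. Those of Mcm7 ran from -0.66 to 1.24, so the direction in mouse 4 depended on the probe set.

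Mcm10, which helps to start the helicase, had differences of 0.43, 1.32, 1.12 and -0.51. Cdt1, the partner of Cdc6 in loading, was level, with signals between 6968 and 11679 in the expansions and between 7423 and 9911 in the polyclonal samples, and a mean difference of -0.0063 ± 0.17 (SD, n = 4). Orc6 (mean 0.19) and Gins2 (mean -0.17) had differences of 0.62, -0.06, 0.17 and 0.015 and of 0.40, -0.19, 0.48 and -1.38 in pairs 1 to 4. Orc1, the large subunit of the origin recognition complex, was above background in 2 expansions and 3 polyclonal samples and did not pass the filter.

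Of 14 clamp, clamp loader, polymerase and lagging strand genes, 12 were higher on average, with a median of 0.36 and pair medians of 0.33, 0.50, 0.89 and -0.075. Dscc1, a subunit of the alternative clamp loader that acts in sister chromatid cohesion, read 588, 1202, 1034 and 877 in the expansions and 436, 224, 201 and 601 in the polyclonal samples. The polyclonal samples of mice 2 and 3 were the lowest of the 8, and their expansions the highest. The mean difference was 1.43 ± 1.09 (SD, n = 4; limma adjusted p = 0.9998), or 2.69-fold. Pole, the catalytic subunit of the leading strand polymerase epsilon, read 133, 196, 301.5 and 149.9 in the expansions and 88.6, 133, 78.8 and 74 in the polyclonal samples. The lowest expansion, 133.23, was just above the highest polyclonal sample, 132.59, so the groups only just separated. The mean was 0.99 ± 0.62 (SD, n = 4; limma adjusted p = 0.9998).

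Pold1, the catalytic subunit of polymerase delta, read 962, 874, 2901 and 461 in the expansions and 485, 1381, 669.9 and 465 in the polyclonal samples. Expansion 3 alone was far above the rest. Its differences were 0.98, -0.66, 2.11 and -0.013, with a mean of 0.60 ± 1.21 (SD, n = 4; limma adjusted p = 0.9998), so the spread exceeded the mean. Pola1, the polymerase alpha subunit that extends the primer, had differences of 0.37, 1.06, 0.29 and 0.038. The primase subunits Prim1 and Prim2 had 0.03, 0.98, 1.07 and -0.44 and 0.30, -0.025, 0.82 and 0.63 on the probe sets used. In mouse 4 their other tested probe sets had the opposite order, at 0.66 for Prim1 and -0.45 for Prim2. The sliding clamp Pcna had signals from 15209 to 35321 in the expansions and from 12999 to 30040 in the polyclonal samples, with a mean difference of 0.29 ± 0.40 (SD, n = 4). The clamp loader subunits Rfc3, Rfc4 and Rfc5 had means of 0.32, 0.44 and 0.10, and in mouse 4 they ran from 1.02 for Rfc3 to -1.20 for Rfc5. Fen1 and Lig1, which process and seal Okazaki fragments, had means of 0.18 and 0.17. Pole2, the second subunit of polymerase epsilon, had differences of -0.96, 0.53, 1.40 and -1.13, higher in mice 2 and 3 and lower in mice 1 and 4.

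Rpa2, a subunit of the protein that coats single-stranded DNA during copying, had its highest value in mouse 1. Its signals were 748, 246, 345 and 251 in the expansions and 208, 563, 446 and 316 in the polyclonal samples. It was higher in the alpha4-high expansion of mouse 1 and lower in every alpha4-low expansion than in the partner. The mean over all pairs was -0.012 ± 1.28 (SD, n = 4), and over the alpha4-low pairs -0.62.

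The 4 nucleotide supply genes had no common direction, with a median of 0.10 and pair medians of 0.71, -0.026, 0.096 and -0.17. Rrm2, the regulated subunit of ribonucleotide reductase, read 3554, 3267, 2407 and 3233 in the expansions and 1809, 1287, 1536 and 3216 in the polyclonal samples. The expansion was clearly above its partner in mice 1 to 3 and level with it in mouse 4. The differences were 0.97, 1.34, 0.65 and 0.0075, with a mean of 0.74 ± 0.57 (SD, n = 4; limma adjusted p = 0.9998). Rrm1, the other subunit of the enzyme, had differences of 0.44, -0.30, 0.34 and -0.37 and a mean of 0.03. Tyms, thymidylate synthase, read 4.15, 116, 103 and 54.8 in the expansions and 33.1, 97.2, 147 and 71.6 in the polyclonal samples. It was below background in expansion 1 and in polyclonal sample 1, and its mean of -0.67 ± 0.98 (SD, n = 4; limma adjusted p = 0.9998), the most negative of the members, rests on that pair; over the other 3 pairs it was -0.20. Tk1, thymidine kinase, read 45.5, 6.18, 11.8 and 14 in the expansions and 2.51, 73, 13.6 and 5.22 in the polyclonal samples, and only polyclonal sample 2 was above background. It did not pass the filter, and no fold is given.

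All 5 S phase checkpoint and repair genes were higher on average, with pair medians of 0.54, 2.30, 1.92 and 0.60. Rad51ap1, a DNA repair factor, had the highest mean of the 40 members. Its probe set (1417938_at) read 784, 1206.5, 3123 and 1299 in the expansions and 419.9, 269, 494 and 802 in the polyclonal samples. Expansion 3 was the highest sample, and only polyclonal sample 4 was above any expansion. The differences were 0.89, 2.14, 2.65 and 0.69, with a mean of 1.59 ± 0.95 (SD, n = 4; limma adjusted p = 0.9998), or 3.02-fold. Chek1, the kinase of the replication checkpoint, read 844, 1882, 2094 and 980.2 in the expansions and 580.04, 377, 382 and 794 in the polyclonal samples. The groups did not overlap, and expansions 2 and 3 stood well above the rest. The mean was 1.40 ± 1.13 (SD, n = 4; limma adjusted p = 0.9998).

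Dtl, the substrate receptor of the ubiquitin ligase that destroys Cdt1 in S phase, read 282, 667, 236 and 566 in the expansions and 286, 95.8, 58.5 and 330.5 in the polyclonal samples. The samples of mouse 1 were close to each other, and the polyclonal samples of mice 2 and 3 were the lowest. The differences were -0.02, 2.74, 1.92 and 0.77, with a mean of 1.35 ± 1.22 (SD, n = 4; limma adjusted p = 0.9998). Brca1, a repair factor at stalled forks, had differences of 0.10, 2.54, 0.51 and -0.69, so that 1 mouse carried its mean of 0.61 ± 1.38 (SD, n = 4). Clspn, the adaptor that lets Chek1 be activated, was instead furthest above its partner in mouse 1, with differences of 1.54, -0.20, -0.22 and 0.60. The pairs of mice 2 and 3 held the values above 2 for Rad51ap1, Chek1 and Dscc1. Without both, the means were 0.79 for Rad51ap1, 0.42 for Chek1, 0.49 for Dscc1, 0.37 for Dtl and 0.71 for Cdc6.

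**Figure D3:**
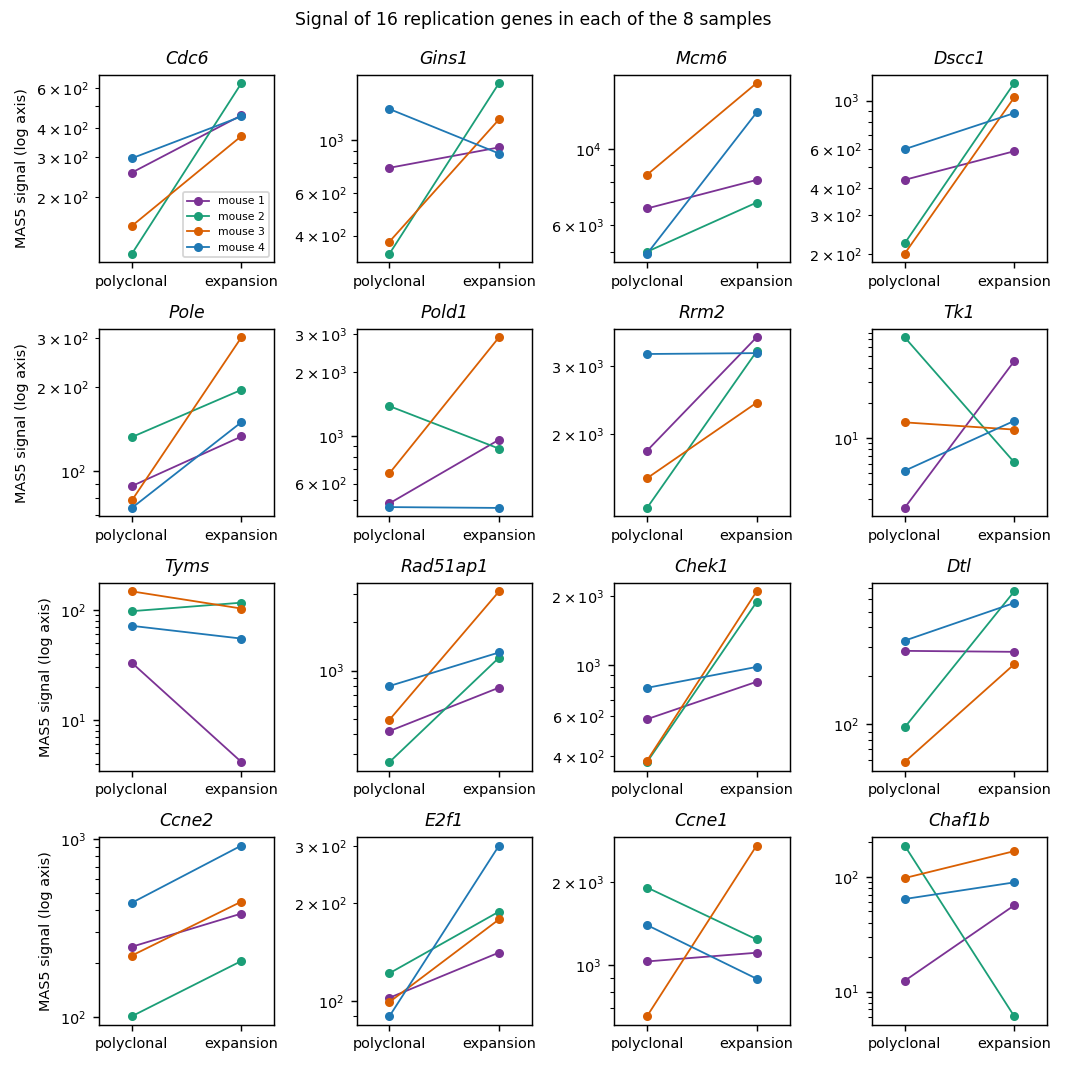
MAS5 signal (log axis) of 16 replication genes in the polyclonal sample and the expansion of each mouse, joined by a line and coloured by mouse. Lines slope upward in all 4 mice for Cdc6, Mcm6, Pole, Dscc1, Rrm2, Rad51ap1, Chek1, Ccne2 and E2f1, and they cross for Tk1, Tyms, Chaf1b, Ccne1 and Pold1.

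Cyclin E and E2F1 drive entry into S phase. Ccne2 (cyclin E2) read 381, 207, 445 and 919.6 in the expansions and 248, 101, 221 and 438 in the polyclonal samples. The levels of the 2 groups overlapped, but within each mouse the expansion was higher. The differences of 0.61, 0.997, 0.99 and 1.06 were the most even of the genes above 0.5, with a mean of 0.91 ± 0.21 (SD, n = 4; limma adjusted p = 0.9998), or 1.88-fold. E2f1 read 141, 189, 178 and 301 in the expansions and 102.5, 122, 99.5 and 89.9 in the polyclonal samples. Every expansion exceeded every polyclonal sample, with the widest gap in mouse 4. The mean was 0.89 ± 0.55 (SD, n = 4; limma adjusted p = 0.9998). Ccne1 (cyclin E1) read 1109.7, 1239, 2701 and 894 in the expansions and 1032, 1906, 655 and 1396 in the polyclonal samples. Expansion 3 was high and the other samples overlapped, with a mean of 0.22 ± 1.26 (SD, n = 4; limma adjusted p = 0.9998). Chaf1b, a subunit of the chromatin assembly factor that places histones behind the fork, read 56.4, 6.10, 168 and 89.6 in the expansions and 12.4, 188, 97.7 and 64.1 in the polyclonal samples. It was below background in expansion 2 and in polyclonal sample 1, and its mean of -0.27 ± 2.63 (SD, n = 4; limma adjusted p = 0.9998) has no settled direction.

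In the alpha4-low expansions of mice 2, 3 and 4, again 32 of 40 members were higher on average, against 44.5% of all probe sets, with a median of 0.47 against -0.067. Without pair 3, 27 members were higher with a median of 0.29. With the probe sets of a gene averaged the median was 0.21, and with their median taken it was 0.12. A set of 12 members was higher in each of the 3 pairs, against 9.99% of all probe sets, namely the 11 named above and Dtl. No member passed the test, while 0.0533% of all probe sets did (12 probe sets), and limma adjusted p ran from 0.515 to 0.9987 over the members. At an unadjusted p under 0.05, 9 of 38 members were higher and 0 lower, against 1.2% of all probe sets that were higher and 3.91% that were lower. The smallest adjusted p values belonged to Rad51ap1 (mean 1.83, SE 0.47, limma adjusted p = 0.515), Dtl (1.81, SE 0.46, 0.515), Dscc1 (1.76, SE 0.47, 0.580) and Chek1 (1.68, SE 0.49, 0.741). Cdc6 followed at 1.43 (SE 0.45, limma adjusted p = 0.778). Ccne2, at 1.02, and Mcm6, at 0.91, had limma adjusted p = 0.939.

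Without pair 4, 3 of the 38 tested members passed in the alpha4-low pairs, against 0.657% of all probe sets (148, up from 12). They were Dtl (2.33, limma adjusted p = 0.0365), Dscc1 (2.37, limma adjusted p = 0.0414) and Rad51ap1 (2.40, limma adjusted p = 0.0473). That fit rests on mice 2 and 3, the mice with the less pure polyclonal samples, and the pair left out had the lowest member median. It has fewer residual degrees of freedom than the main fit. In pairs 2 and 3 the other tested probe set of Rad51ap1 was at 1.44 and 2.64, and that of Dscc1 at -0.033 and -1.44. The others of Dtl were at -1.01 and 1.805, -0.62 and -0.30, and -0.62 and -0.85. The direction of Dscc1 and Dtl thus depended on the probe set. With pair 2 or pair 3 left out instead, 0 members passed in the alpha4-low pairs, and no member passed under any other alternative. With sort purity as a covariate, 20 of 40 members were higher in the alpha4-low pairs and the median was -0.012, whereas over all pairs 28 were higher with a median of 0.32. Of the alpha4-low pairs only that of mouse 4 had samples of nearly equal purity (98% and 97%). The adjusted alpha4-low values therefore rest mainly on mouse 4, where the median was -0.0026, and cannot separate purity from the mouse. That fit also has fewer residual degrees of freedom than the main fit.

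The difference between the subclasses passed for 0 members, and for 0.0533% of all probe sets (12 probe sets). The alpha4-high subclass has 1 expansion, so its spread is borrowed from the other mice. Limma adjusted p ran from 0.514 to 0.9997 over the members, and 1 member had an unadjusted p under 0.05. That member was Rpa2, with a difference, alpha4-low minus alpha4-high, of -2.44 (SE 0.83, limma adjusted p = 0.514). Of the other members, Chaf1b (-2.79), Tyms (1.85) and Dtl (1.83) had the largest sizes, and Chaf1b and Tyms have signals below background in the samples that set them.

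The choice of probe set bears on these values. Other probe sets that passed the filter exist for 23 members, 32 in all, and 16 of the 32 were higher on average, with a median of -0.017. For 12 members the tested probe sets differed in sign. Rad51ap1, Chek1, Gins1 and Rrm2 kept their sign on their other tested probe sets, with means of 1.22 for Rad51ap1, 1.22 and 0.66 for Chek1, 1.15 for Gins1, and 0.66 and 0.0039 for Rrm2. Dscc1 did not (-0.67 on a probe set with a geometric mean signal of 51.2, against 544 for the one used). Dtl gave 0.81, -0.23 and -0.61, Mcm6 gave -0.27, Mcm4 gave -0.044, Pold1 gave -0.17, Ccne1 gave -0.13 and Tyms gave 0.71. Mcm3 gave -0.46, -0.80 and 0.078. Cdc6, Pole and Ccne2 have a single probe set, and the other probe sets of E2f1 and Chaf1b did not pass the filter. The probe sets used for Mcm4, Mcm5, Mcm6, Pold1, Rrm2, Fen1 and Ccne1 end in _x_at, the array maker's mark for probes that may also bind other transcripts. Averaged over all probe sets of each gene, 31 of 40 members were higher, with a median of 0.19.

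**Figure D4:**
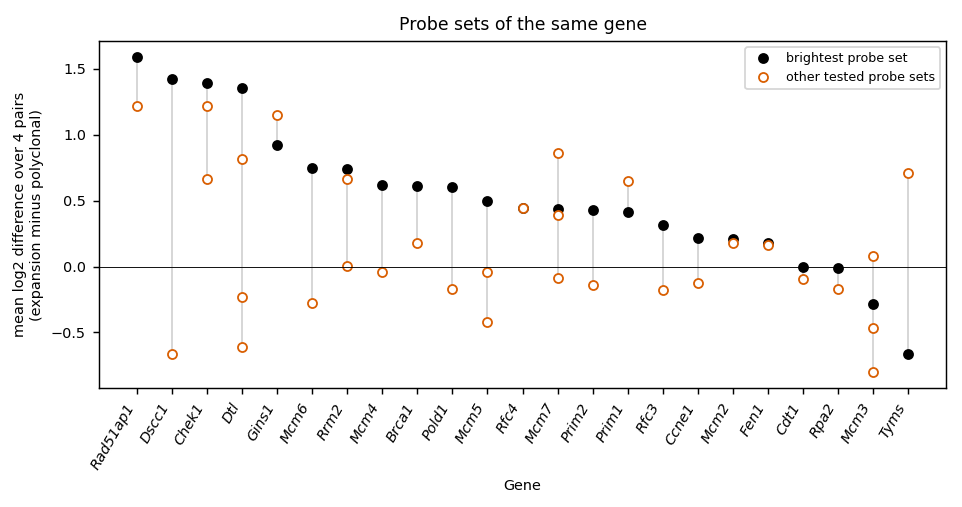
Mean difference over 4 pairs (log2 scale) for the 23 replication genes with more than 1 tested probe set, with the brightest probe set in black and the others as open circles joined by a line. For Rad51ap1, Chek1 and Gins1 all points lie above 0, and for Dscc1, Dtl, Mcm6 and Mcm4 they lie on both sides.

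Genes that act beside the members were read in the same way, and 0 of them passed the test in any of the 3 fits (limma adjusted p). At an unadjusted p under 0.05 over all pairs, 5 mitosis genes, 1 E2F and S phase regulator and 1 gene of the CDK inhibitor list were higher, and 1 regulator was lower. Chtf18, Cdkn1c, Cdkn2a, Aurka and Plk1, named below, did not pass the filter. Pold2, Cdca7, Cdkn2b, Brip1 and Exo1, also named below, passed it but were below background in some polyclonal samples. Pold2 read 8.31 in sample 4, and Cdca7 10.5 and 6.98 in samples 1 and 4. Cdkn2b read 14.5 and 6.28 in samples 2 and 3, Brip1 16.9 in sample 1, and Exo1 36.6 and 35.9 in samples 1 and 2. Over all probe sets tested, 46.1% were higher on average, the share to set beside the counts of this and the following lists. Of 34 other replication genes, 22 were higher on average with a median of 0.074, below the 0.43 of the members. The difference between lists was not tested. Their highest means belonged to Cdc45, the helicase cofactor, Rfc2 and Pold2 (0.94 to 0.73), and their lowest to Chtf18, Dbf4 and Mcm9 (-0.53 to -0.35). Cdc45 was higher by about as much in mice 1 and 3 (2.12 and 2.03) and not in mice 2 and 4 (0.071 and -0.44). Of 17 E2F and S phase regulators, 8 were higher, with a median of -0.015. E2f8, Ccna2 (cyclin A2) and Rb1 were at the upper end (1.03 to 0.50), and Cdk6, Myc and E2f2 at the lower end (-0.75 to -0.33). These regulators had no common direction. Of the cyclin E and E2F1 members, E2f1 and Ccne2 were higher in all 4 pairs and Ccne1 in 2.

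Of 13 measured genes of nucleotide and histone supply and replication-coupled chromatin, 10 were higher, with a median of 0.22, led by Cdca7, Uhrf1 and Ezh2 (1.24 to 0.47), and Slbp, Atad2 and Rrm2b lay just below 0 (-0.11 to -0.021). Of 15 measured fork repair genes, 13 were higher, with a median of 0.27. The helicase Brip1, the nuclease Exo1 and the kinase Wee1 led them (0.96 to 0.68), and Atr and Fanci were below 0 (-0.23 and -0.16). Of 12 CDK inhibitors and quiescence genes, 5 were higher, with a median of -0.12. Cdkn2b, Cdkn1a (p21) and Btg1 had the highest means (1.05 to 0.51), and Cdkn1c, Klf2 and Cdkn2a the lowest (-0.92 to -0.43). The inhibitor Cdkn1a and the antiproliferative gene Btg1 were higher in all 4 pairs, as were 11 of the members.

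Of 23 measured mitosis genes, 21 were higher on average, against 46.1% of all probe sets tested, with a median of 0.58. Bub1b, Bub1 and Aurka had the highest means (1.17 to 1.07), and Plk1 and Cenpe were below 0 (-1.26 and -0.16). Bub1b was higher in only 2 of the pairs. Its mean rests on pair 3 (4.26), where polyclonal sample 3 was below background at 6.14. Their pair medians were 1.01, 0.27, 0.81 and -0.024. The order of the mice was therefore not that of the replication genes: mouse 1 was highest for mitosis genes and mouse 3 for replication genes, while mouse 4 was near 0 for both. The CCAAT box was found in 18 of 21 mitosis genes with a promoter entry (85.7%) and TTTGAA in 8 of 21 (38.1%), while the E2F words were found in 1 of 21 (4.76%), against 8 of 34 members.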

How the data were processed

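RNA from frozen sorted cells was amplified by a double procedure, labelled with biotin and hybridised to 8 Affymetrix Mouse Genome 430 2.0 arrays, per the labels' protocols. The authors deposited a linear intensity for each probe set. The submitters' processing notes name MAS5, without a version. Each array had a 2% trimmed mean of 500, so no scaling was added, and the median signal was between 46.5 and 75.1. Scaling of this kind hides changes in total RNA, and double amplification favours 3′ ends. The number of arrays limits the precision.

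Values were taken as log2(intensity + 5). After 64 control probe sets and those with a mean not above the median (signal about 45.3) were left out, 22518 remained. Linear models were fitted by limma (version 3.58.1, under R 4.3.3; lmFit, eBayes with an intensity trend), with the mouse as a fixed block. A coefficient for all expansions left 3 residual degrees of freedom; separate coefficients for the subclasses left 2. P-values are two-sided, adjusted by Benjamini-Hochberg over all 22518, with a threshold of 0.05. The pairing comes from the design, since both samples of a pair are from the same mouse; deviations from the group means correlated within mice 1 to 4 at 0.374, 0.0771, 0.214 and 0.338. Gene names came from the platform annotation, in which 34958 probe sets have 1 gene and 932 several; none was named from the latter. The scripts were checked on simulated data.

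The members and gene lists were chosen by function, with earlier results of these data known. Values in every sample are given for the 3 members of each role with the largest absolute mean difference, the 6 with the smallest p in each comparison and the most negative; values of some others are added. From the other lists the 3 highest and lowest means are named. Alternatives covered the pseudocount, filter, scaling, variance prior, probe set summary, sort purity, the block and the omission of pairs.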

Additional observations from a re-analysis of the deposited data

Results flagged for a closer look

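Among 121 groups of 4 values (levels of each member in the expansions and in the polyclonal samples, its paired differences, and the pair medians over all members), 4 held a value far from the other 3, where chance gives about 5%. The Mcm3 signal of expansion 4 was low, at 302.64, against 343 to 349 in the other expansions. The Mcm7 signal of polyclonal sample 3 was low, at 2764.4, against 4202 to 4492 in the other polyclonal samples. The Gins2 signal of expansion 4 was low, at 57.836, against 183 to 224 in the other expansions. The paired difference of Ccne2 was low in pair 1, at 0.60961, against 0.99 to 1.06 in the other pairs.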

How the results depend on the processing

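Over all pairs 0 probe sets passed under every alternative except omission of a pair, which gave 0 to 20 (20 without pair 1); 731 had an unadjusted p under 0.05. For the alpha4-low pairs 12 passed, against 22 with a stricter filter, 6 with quantile normalization, 29 with arrays centred on the median, 0 without the variance trend and 0 without the replicate block, and 18 to 148 when a pair was left out. For the difference between subclasses 12 passed, against 0 with a pseudocount of 1, 25 with 16, 29 with 32, 25 without the filter, 63 with the stricter filter, 0 with quantile normalization, 56 with centred arrays, 0 without the trend, 143 without the replicate block and 64 to 266 when a pair was left out. Without the replicate block 32 members were higher over all pairs, with a median of 0.43. Members higher over all pairs numbered 24 to 35 under the alternatives, 24 being without the pairs of mice 2 and 3. With sort purity as a covariate 20 members were higher in the alpha4-low pairs and their median was -0.012. These adjusted alpha4-low values rest mainly on mouse 4. Centring moved the median of all probe sets in pair 2 from -0.22 to 0.20, and quantile normalization to 0.04; the member median there was 0.90 after centring. When all probe sets of a gene were averaged, the member median was 0.37 in pair 3, 0.215 in pair 2 and 0.26 in pair 1; with their median taken it was 0.51, 0.26 and 0.34, so the order of mice 1 and 2 turned. The causes were not tested.

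Directions of single members turned as follows over all pairs. With a pseudocount of 32, Orc1 was at 0.041 and Tk1 at -0.011. With quantile normalization, Pole2 was at 0.085 and Rpa2 at 0.029; with centring, Cdt1 was at 0.088, Pole2 at 0.053 and Rpa2 at 0.082. With purity as a covariate, the values were -0.17 for Mcm2, -0.081 for Mcm5, -0.079 for Mcm7, -0.38 for Rfc5, -0.031 for Prim1, -0.29 for Ccne1, 0.51 for Chaf1b and 0.60 for Rpa2. The mean of all probe sets gave -0.18 for Mcm6, 0.19 for Orc1 and -0.49 for Pola1, and their median gave -0.038 for Mcm5, -0.27 for Mcm6, 0.19 for Orc1 and -0.49 for Pola1. Without the pairs of mice 2 and 3, the values were -0.21 for Mcm2, -0.23 for Mcm5, -0.19 for Mcm7, -0.037 for Mcm10, -0.17 for Gins1, -0.53 for Rfc5, -0.20 for Prim1, -0.29 for Brca1, -0.11 for Fen1, -0.27 for Ccne1, 1.14 for Chaf1b and 0.75 for Rpa2. When 1 pair was left out, the range was -0.026 to 1.05 for Brca1, -0.39 to 0.51 for Ccne1, -0.088 to 0.041 for Cdt1, -0.97 to 1.01 for Chaf1b (-1.83 to 0.60 in the alpha4-low pairs), -0.11 to 0.34 for Fen1, -0.39 to 0.23 for Gins2, -0.11 to 0.38 for Lig1, -0.18 to 0.47 for Mcm2, -0.66 to 0.67 for Orc1, -0.52 to 0.32 for Pole2, -0.28 to 0.53 for Rfc5, -0.62 to 0.38 for Rpa2, -0.11 to 0.16 for Rrm1 and -0.69 to 1.17 for Tk1. Orc1, Tk1, Tyms and Chaf1b were near background on some arrays, which limits what these show.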
